A study of Mus musculus with 18 samples.

Results

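The weakest H3K4me3 peaks that were called in both control and Men1 knockout mouse islets are described here: 1611 pairs of overlapping peaks, or 9.09% (exact 95% interval 8.67 to 9.53) of the 17716 one-to-one pairs on chromosomes 1 to 19. A one-to-one pair is a control peak and a knockout peak that overlap by at least 1 bp and touch no further peak of the other list. A pair was taken as weak when both of its peaks had a deposited score under 200, so the pairs were chosen by score, and their scores and the low rank of their peaks are no result. H3K4me3 was mapped by ChIP-seq, in which DNA carried by an antibody-bound histone mark is sequenced, in pancreatic islets of 2-month-old mice. The control group was RIP-Cre, a line in which the rat insulin promoter drives Cre recombinase, and the other group was the Men1 islet-specific knockout. Both genotypes were kept on the same mixture of 129s6, FVB/N and C57BL/6 and were profiled with the same antibody lot, with 1 library each. Not given in the sources used here are the promoter that drives Cre in the knockout, the number of animals in a library and the share of islet cells that still hold menin. The other 16 of the 18 samples of the series (inputs, H3K27me3 and the ages of 6 and 12 months) were not analysed here.

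H3K4me3, trimethylation of lysine 4 on histone H3, is placed by SET1 and MLL family complexes and is richest just after the start sites of active genes, above all at CpG islands. Menin, the product of Men1, is a subunit of the complexes built on MLL1 and MLL2. Low levels of the mark are known at weakly active or poised promoters and at some enhancers, and in a mixed tissue also at promoters that are active in a minority of the cells. Islets hold beta, alpha and delta cells as well as vessel and immune cells, and a peak list does not tell these sources apart. No gene annotation of the build of the lists (mm9) was used here, so placement is given relative to other peaks and by position, and not by gene.

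Weak peaks were about equally frequent in both lists. A score under 200 was held by 4524 of 21215 autosomal control peaks (21.3%, interval 20.8 to 21.9) and by 4741 of 20752 knockout peaks (22.8%, interval 22.3 to 23.4). Their fates in the other list were less alike. Of the weak control peaks, 48.5% (interval 47.1 to 50.0) overlapped a knockout peak, while 64.8% (interval 63.4 to 66.2) of the weak knockout peaks overlapped a control peak. The 1611 weak pairs took in 35.6% of the weak control peaks and 34.0% of the weak knockout peaks. A further 441 weak control peaks (9.75%) had a single knockout partner with a score from 200 to under 1000, and 8 had one of 1000 or more. The same held for 999 (21.1%) and 23 of the weak knockout peaks. Split or joined groups of peaks held 136 weak control and 439 weak knockout peaks. No peak of the other list was met by 2328 weak control peaks (51.5%, interval 50.0 to 52.9) and by 1669 weak knockout peaks (35.2%, interval 33.8 to 36.6). All intervals here treat peaks as independent and cover counting error over peaks only, since each genotype has a single library, and the depth of both libraries is unknown. Scores also differed between the lists, with a median of 2862 in control and 2111 in knockout islets over all autosomal pairs. An equal score therefore need not mark an equal rank in both lists, and its part in the unlike fates was not tested.

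The share of peaks found again climbed through the weak range in each list. In the control list it was 33.1% (interval 30.6 to 35.7) of 1364 peaks with a score from 60 to under 80, 42.2% from 80 to under 100, 53.6% from 100 to under 150 and 69.0% (interval 65.9 to 72.0) of 913 peaks from 150 to under 200. In the knockout list the values in the same order were 48.8% (interval 46.2 to 51.3) of 1538 peaks, 61.1%, 72.2% and 84.6% (interval 82.1 to 87.0) of 866 peaks. Above the weak range, at scores from 200 to under 300, 81.4% of control peaks and 92.3% of knockout peaks were found again. At scores from 500 to under 1000 the shares were 97.4% and 98.9%. A weak call was thus met in the other list less often than a better-scored one in either direction. The score ranges are too coarse and unequal to tell whether there is a step at 200.

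**Figure D1:**
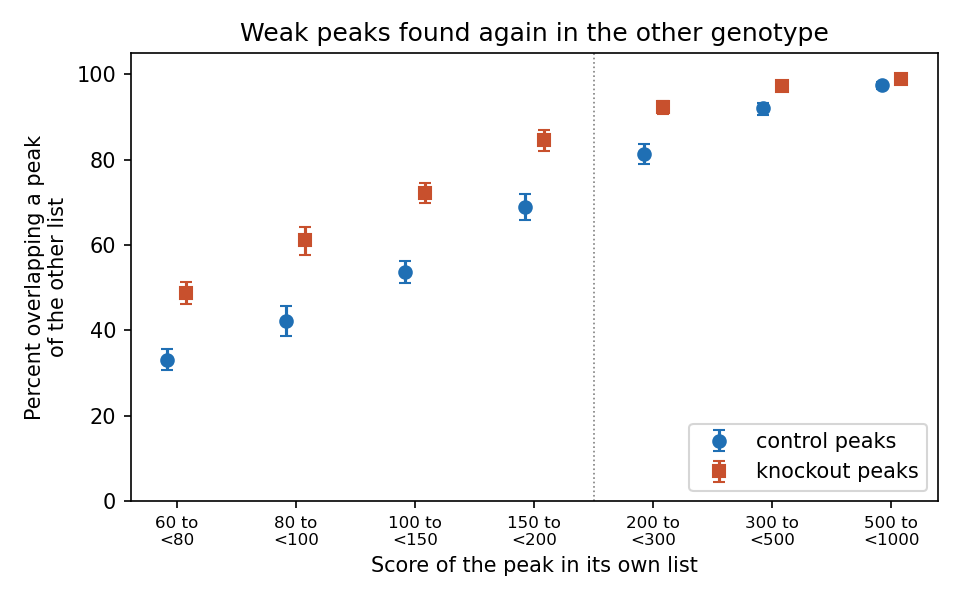
Percent of autosomal peaks that overlap a peak of the other list (y axis) by the peak's score in its own list (x axis), for control peaks (circles) and knockout peaks (squares), with exact 95% binomial intervals. The dotted line marks the score of 200. The share climbs from 33.1% to 97.4% for control peaks and from 48.8% to 98.9% for knockout peaks, in score ranges too coarse to show a step at the line.

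The 3 pairs just inside the threshold and the 3 just outside it varied in width ratio on both sides, from -0.69 to 0.37 on the log2 scale inside and from -0.35 to 0.35 outside. Closest on the inner side, a control peak on chromosome 18 (82967581 to 82968713) scored 199.96 and its knockout partner 120.17, with widths of 1133 and 994 bp. Closest on the outer side, a knockout peak on chromosome 11 (9015996 to 9016841) scored 200.04 and its control partner 167.17, with widths of 846 and 761 bp. At the low end, the pair with the lowest higher score was on chromosome 6 (128349655 to 128350396), with scores of 61.35 in control and 61.36 in knockout islets against list minima of 60.01 and 60.02. Its peaks were 490 and 523 bp wide and overlapped over 36.5% of their joined length. Both scores were under 100 in 353 weak pairs (21.9%, interval 19.9 to 24.0).

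Weak shared peaks were narrow. Their median width was 836 bp (interval 823 to 846; range 364 to 2183) in control islets and 720 bp (interval 710 to 732; range 314 to 1637) in knockout islets. The middle 80% of the pairs lay between 600 and 1094 bp in control and between 516 and 972 bp in knockout islets. For pairs with both scores from 200 to under 1000, here called middle pairs (2419 pairs), the medians were 1271 and 1149 bp. For the 11091 strong pairs, with both scores of 1000 or more, they were 2349 and 2188 bp. Within each list width went up with score, so the narrow widths follow in part from the choice by score: the rank correlation of score and width across the weak pairs was 0.585 in control and 0.600 in knockout islets, as a description of values read from the same peaks. Only 57 weak pairs (3.54%) were over 1000 bp wide in both lists, against 69.2% of the middle pairs. In all, the weak pairs covered 1365 kb of the control list and 1187 kb of the knockout list, which is 3.32% and 3.20% of the autosomal length of these lists.

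**Figure D2:**
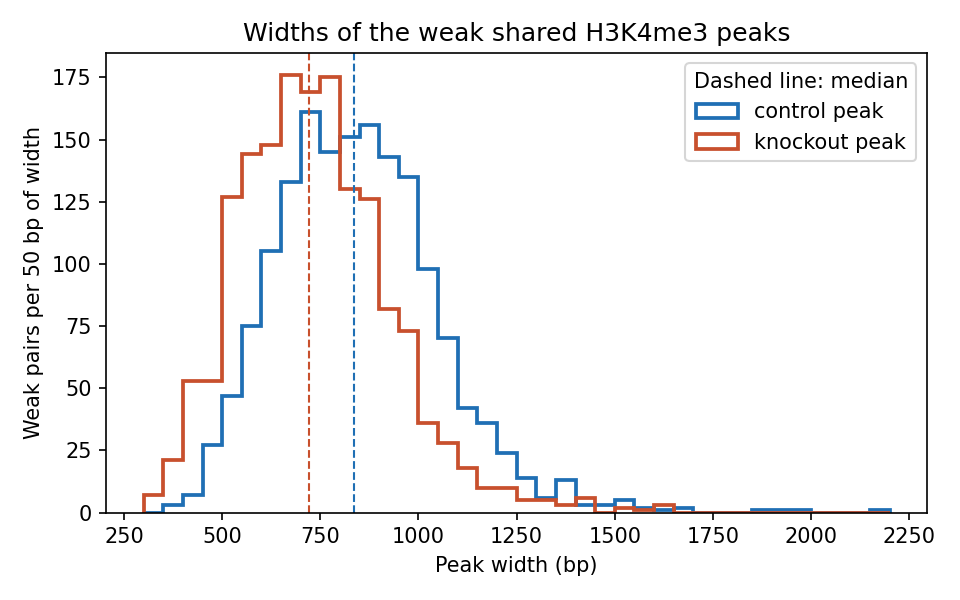
Number of weak pairs (y axis, in bins of 50 bp) by peak width in bp (x axis) in the control list (blue) and the knockout list (orange), with medians as dashed lines. The medians are 836 bp (control) and 720 bp (knockout), and the distributions overlap over most of their range.

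The widest weak pairs were selected by mean width. On chromosome 17 (21162249 to 21164321) the control peak (1963 bp, score 192.57) met a knockout peak of 1585 bp that scored 198.8. A broad region with low scores lay on chromosome 4 (145703908 to 145706090), where widths of 2183 bp (control) and 1220 bp (knockout) went with scores of 70.91 and 69.84. This region was 867 kb from the nearest strong peak. On chromosome 7 (13073815 to 13075736), in contrast, peaks of 1903 and 1283 bp lay 195 bp from a strong peak. Another pair on chromosome 17 (22590829 to 22592356) measured 1318 bp (control) and 1437 bp (knockout). On chromosome 2 (98506238 to 98507648) the widths were 1411 and 1340 bp, and on chromosome 17 (30246996 to 30248685) they were 1105 and 1637 bp. These 6 widest pairs lay both next to strong peaks and far from them. Of the 6, 4 were narrower in the knockout list, too few pairs to set against the 73.7% of all autosomal pairs.

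Peaks were paired because they overlap, so a shift of their midpoints could not exceed their mean width, a cap that is lower for weak than for wider pairs. Within that cap, the midpoints of a weak pair were a median of 73 bp apart (interval 68.5 to 77.0), against 67 bp in middle and 72 bp in strong pairs. Since the caps differ, these values in base pairs do not rank the classes by closeness of position. Relative to the mean width of the pair, the shift was 9.58% in weak, 5.48% in middle and 3.12% in strong pairs. The overlap took up a median of 73.4% of the joined length of a weak pair (interval 72.3 to 74.2), against 82.9% in middle and 89.6% in strong pairs. It reached 50% or more of that length in 1470 weak pairs (91.2%) and stayed under 20% in 13 (0.807%). Over all autosomal pairs these shares were 98.0% and 0.107%, and over pairs with peaks in different score ranges 92.6% and 0.231%. How wide a weak peak was in one list said little about its width in the other: the rank correlation of control and knockout width was 0.294 across weak, 0.682 across middle and 0.928 across strong pairs. These correlations are descriptions, since the width range of each class was bounded by its scores.

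The width comparison asked whether the weak shared regions were as wide in Men1 knockout as in control islets. The knockout peak was the narrower in 1115 weak pairs (69.2%, interval 66.9 to 71.5), the wider in 494 and equal in 2, against 73.7% narrower over all 17716 autosomal pairs. The share among weak pairs was thus somewhat below that of the pairs as a whole (interval 73.0 to 74.3), although their median ratio was lower. As log2 of knockout over control width, the median ratio was -0.19 (interval -0.215 to -0.169), which corresponds to 87.8% of the control width. For all autosomal pairs it was -0.11 (interval -0.116 to -0.109), for middle pairs -0.14 (interval -0.146 to -0.123) and for strong pairs -0.095 (interval -0.098 to -0.091). The remaining 2595 pairs, whose peaks fall in different score ranges and are here called mixed pairs, had a lower median than the weak pairs, -0.22 (interval -0.239 to -0.202), with overlapping intervals. Counted in base pairs, the median difference was -100 bp in weak, -111 bp in middle, -154 bp in strong and -187 bp in mixed pairs. Both borders of the weak peaks lay further in on the knockout side, with median shifts of 45 bp at the left border and -52 bp at the right (knockout minus control position). With 1 library per genotype no test of these differences was possible, and a genotype effect cannot be told apart from unequal depth or enrichment of the libraries. The class medians can also depend on the score rule, since width went up with score. For weak pairs the rule left out 999 weak knockout peaks with a single control partner from 200 to under 1000. In the other direction it left out 441 weak control peaks. The medians therefore describe the classes and do not rank them by change in width.

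On the log2 scale the ratio varied more among weak pairs than among middle or strong pairs, and most among mixed pairs. Mixed pairs hold peaks of different score ranges by definition, and width went up with score. Their unequal widths thus follow in part from how the class was formed. Its SD over pairs was 0.417 in weak, 0.281 in middle, 0.170 in strong and 0.487 in mixed pairs, so the spread among weak pairs was larger than their median shift. In base pairs the SD of the width difference had another order, with 233 bp in weak, 257 bp in middle, 313 bp in strong and 452 bp in mixed pairs. The knockout width was within 10% of the control width in 433 weak pairs (26.9%, interval 24.7 to 29.1), compared with 59.8% of the strong and 24.5% of the mixed pairs. A log2 ratio of -1 or lower was found for 54 weak pairs (3.35%, interval 2.53 to 4.35), against 1.27% of all autosomal pairs, 0.413% of the middle pairs and 5.82% (interval 4.95 to 6.79) of the mixed pairs. A log2 ratio of 1 or higher was found for 4 weak pairs (0.248%), against 0.209% of all autosomal pairs. The knockout peak lay wholly inside the control peak in 661 weak pairs (41.0%), against 49.0% of all autosomal pairs. The reverse nesting was seen in 177 weak pairs (11.0%), against 11.2% of all autosomal pairs. In the remaining weak pairs the peaks were offset from one another.

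**Figure D3:**
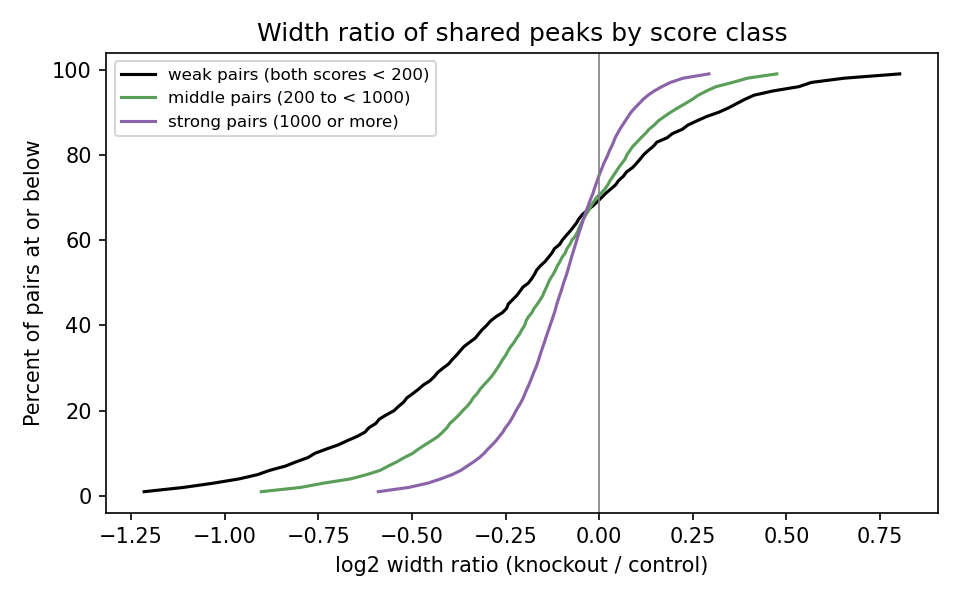
Cumulative percent of pairs (y axis) by log2 ratio of knockout over control width (x axis) for weak, middle and strong pairs, drawn at percentiles. Of the 3 classes drawn, the weak pairs have the flattest curve, with an SD of 0.417 against 0.281 and 0.170, and all 3 curves pass the 50% level below a ratio of 0.

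The size and sign of the width ratio depended on which list was used to sort the weak pairs by score. Sorted by control score, the 353 pairs from 60 to under 80 had a median log2 ratio of 0.00 (interval -0.059 to 0.045), with the knockout peak narrower in 49.6% of them. The ratio then fell to -0.08 from 80 to under 100, -0.24 from 100 to under 150 and -0.36 (interval -0.394 to -0.309) in the 421 pairs from 150 to under 200, where 83.4% were narrower. Sorted by knockout score, the order was reversed. The 448 pairs from 60 to under 80 had a median of -0.44 (interval -0.507 to -0.401), followed by -0.25, -0.12 and, in the 289 pairs from 150 to under 200, 0.03 (interval -0.024 to 0.069). Under control sorting, control widths went from a median of 683 to 990 bp while the knockout partners went from 687 to 757 bp. Under knockout sorting, knockout widths went from 588 to 899 bp while the control partners went from 800 to 876 bp. The partner list therefore showed a much flatter course than the list used for sorting under both sortings. Neither trend with score can therefore be read as an order of the regions by change in width.

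**Figure D4:**
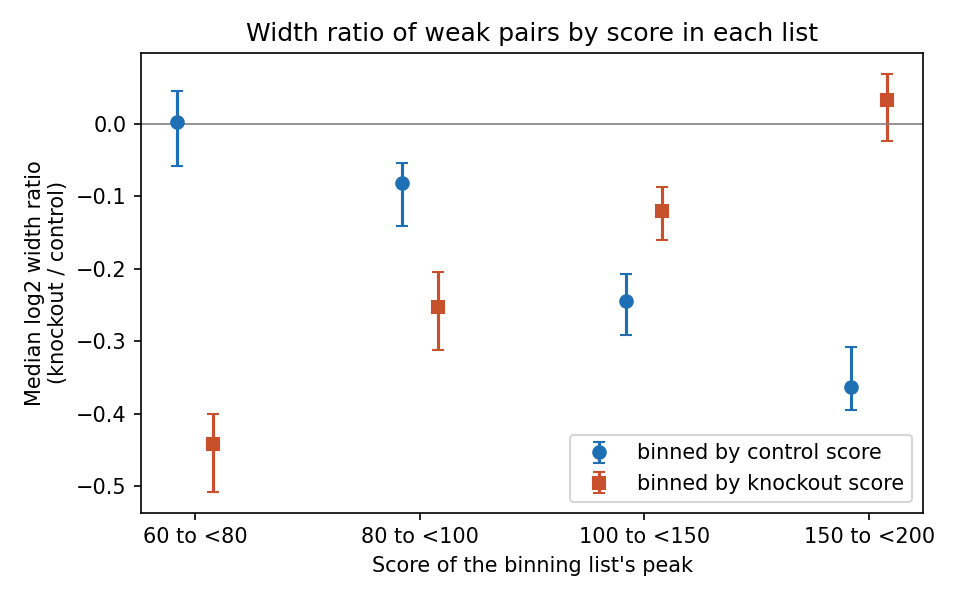
Median log2 ratio of knockout over control width in weak pairs (y axis), with 95% order-statistic intervals, by the score of the control peak (circles) or of the knockout peak (squares) on the x axis. The circles run from 0.00 down to -0.36 and the squares from -0.44 up to 0.03, so the same pairs give opposite trends.

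Width itself made less difference. Among the 537 narrowest weak pairs by mean width, with a median mean width of 645 bp, the median log2 ratio was -0.21 (interval -0.240 to -0.160). Among the 537 widest, with a median mean width of 934 bp, it was -0.18 (interval -0.213 to -0.138). The 537 pairs between them gave -0.20. The intervals of these groups overlapped one another.

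The weak pairs with the lowest and the highest width ratios were as follows. On chromosome 7 (17060943 to 17062454) the control peak measured 1512 bp (score 164.32) and the knockout peak 535 bp (score 84.88), the lowest log2 ratio of all weak pairs (-1.50). The next lowest were on chromosome 17 (47647701 to 47648854; 1154 and 425 bp), chromosome 12 (106991514 to 106992790; 1277 and 471 bp) and chromosome 15 (10994358 to 10995487; 1130 and 419 bp). In each of these 4 pairs the control peak scored 144 or more and the knockout peak under 89. In the other direction, a control peak of 652 bp on chromosome 11 (joined region 96740499 to 96741944) met a knockout peak of 1446 bp, a log2 ratio of 1.15. The others were on chromosome 7 (25247027 to 25248631; 741 and 1605 bp), chromosome 8 (123998219 to 123999344; 520 and 1126 bp) and chromosome 11 (95775701 to 95777109; 655 and 1322 bp). In these 4 the knockout peak scored at least 143 and the control peak under 96. These pairs are the extremes of 1611 and were selected for their ratio. Width went up with score in each list, so their unequal scores are no separate result. Large differences also occurred at nearly equal scores, as in the chromosome 4 region given among the widest pairs, where 963 bp separated the widths.

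By median gap, weak shared peaks lay somewhat farther from strong peaks than strong peaks lay from each other. The gap from the joined region of a weak pair to the nearest peak of score 1000 or more in either list had a median of 37.9 kb (interval 34.7 to 41.8). For middle pairs the median was 34.4 kb (interval 31.9 to 37.0), and strong pairs lay 33.1 kb (interval 32.0 to 34.3) from the next strong peak other than their own. The gap was 5 kb or less in 185 weak pairs (11.5%, interval 9.97 to 13.1), against 12.8% of middle and 10.5% of strong pairs. Most weak pairs, 1008 (62.6%), lay between 5 and 100 kb from a strong peak. A gap of 1 kb or less was found for 74 weak pairs (4.59%, interval 3.62 to 5.73), against 3.80% (interval 3.08 to 4.64) of middle and 2.17% (interval 1.91 to 2.46) of strong pairs. A gap over 100 kb was found for 418 (25.9%, interval 23.8 to 28.2), against 22.4% (interval 20.8 to 24.1) of middle and 19.3% (interval 18.6 to 20.04) of strong pairs. On both measures the intervals of weak and middle pairs overlapped, while those of weak and strong pairs did not. These shares are given without a test, since positions along a genome are not replicates of a condition.

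Weak peaks called in 1 list alone had different surroundings in each list. Those of the control list lay a median of 32.1 kb (interval 29.5 to 34.4) from a strong peak, with 15.4% (interval 14.0 to 17.0) within 5 kb and 21.3% (interval 19.7 to 23.1) beyond 100 kb. Those of the knockout list lay a median of 55.3 kb (interval 50.4 to 61.7) away, with 12.5% (interval 10.9 to 14.1) within 5 kb and 36.7% (interval 34.4 to 39.0) beyond 100 kb. The weak pairs stood between them in median gap and in the share beyond 100 kb, at 37.9 kb and 25.9%. Within 5 kb the share of weak pairs was 11.5% (interval 9.97 to 13.1). That interval overlapped the one of the knockout-only peaks and not the one of the control-only peaks. The one-list peaks also scored lower, with medians of 89.5 in the control and 82.1 in the knockout list, against 115 and 102 for the weak pairs. They were narrower as well, at 764 and 646 bp, but width went up with score in each list. Among control peaks from 60 to under 80 the median was 656 bp over all peaks and 683 bp in weak pairs. From 150 to under 200 it was 992 and 990 bp. For knockout peaks the same ranges gave 579 and 588.5 bp, and 920 and 899 bp. The part of score in the differences in width and distance was not tested. Since each list comes from 1 library, a genotype effect on distance cannot be told apart from unequal depth or enrichment.

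**Figure D5:**
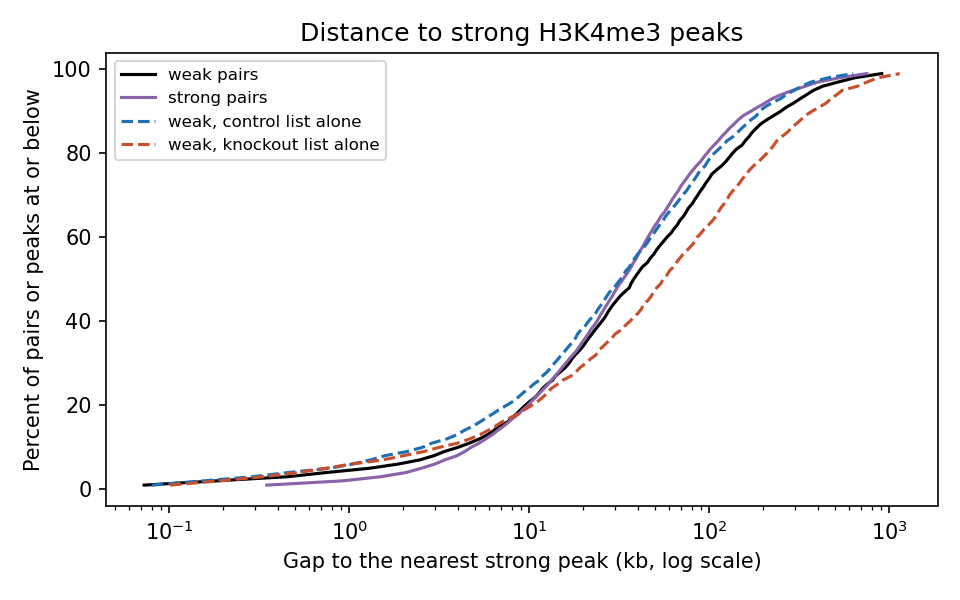
Cumulative percent of pairs or peaks (y axis) by the gap to the nearest strong peak in kb on a log axis (x axis), drawn at percentiles, for weak pairs, strong pairs (to the next strong peak) and weak peaks of 1 list alone. The curves of the weak pairs and of the knockout-only peaks lie to the right at large gaps, with medians of 37.9 and 55.3 kb against 33.1 kb for strong pairs.

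The surroundings of weak pairs ranged nearly as widely in density as those of strong pairs. The median number of strong peaks within 500 kb, joined over the lists and without the region itself, was 7 for weak pairs (range 0 to 49), 8 for middle pairs (range 0 to 50) and 9 for strong pairs (range 0 to 50). In 53 weak pairs (3.29%, interval 2.47 to 4.28) no strong peak was found within 500 kb. The share was nearly the same in mixed pairs, 3.28% (interval 2.62 to 4.03). It was 1.69% (interval 1.22 to 2.29) in middle and 2.17% (interval 1.91 to 2.46) in strong pairs. The nearest strong peak lay on the right in 834 weak pairs (51.8%, interval 49.3 to 54.2), an interval that includes equal shares on both sides. A strong peak on each side within 20 kb was found for 95 weak pairs (5.90%) and within 5 kb for 6. Counting peaks of any score, the nearest other peak lay a median of 17.0 kb away (interval 15.4 to 18.6), and it was a strong one for 735 weak pairs (45.6%, interval 43.2 to 48.1).

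Close neighbours of strong peaks made up a small group. In 51 weak pairs the gap was at most 500 bp, which is less than the width of most weak peaks. The smallest gaps were 6 bp on chromosome 8 (73363815 to 73364374), 9 bp on chromosome 7 (135029737 to 135030842), 10 bp on chromosome 2 (26439468 to 26440442) and 16 bp on chromosome 9 (113704061 to 113705432). The pair on chromosome 8 had nearly equal peaks, of 514 bp (control) and 560 bp (knockout), with scores of 74.07 and 73.86. At the chromosome 9 site, in contrast, the control peak measured 1372 bp (score 160.38) and its partner 589 bp (score 62.19). The strong neighbours of the 185 pairs within 5 kb had a median joined width of 2671 bp (interval 2516 to 2987), against 2362 bp (interval 2345 to 2378) for all 12772 strong regions.

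Distance to a strong peak went with little change in width. Weak pairs within 5 kb of a strong peak had median widths of 835 bp (control) and 720 bp (knockout). Pairs from 5 to 100 kb away had 840 and 720 bp, and pairs beyond 100 kb had 822 and 721 bp. The median log2 ratio was -0.18 (interval -0.316 to -0.087), -0.21 (interval -0.245 to -0.177) and -0.16 (interval -0.196 to -0.106) in these groups, so the intervals overlapped. A log2 ratio of -1 or lower was found for 7.57% (interval 4.20 to 12.4) of the pairs within 5 kb, 2.98% (interval 2.02 to 4.22) of those from 5 to 100 kb and 2.39% (interval 1.15 to 4.36) of those beyond. Overlap over at least 50% of the joined length was found for 83.2% (interval 77.1 to 88.3), 91.8% and 93.5% (interval 90.7 to 95.7) of the same groups. For this last share the intervals of the nearest and the farthest group did not overlap, and no test was made.

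The most isolated weak pairs lay over 1.5 Mb from any strong peak. On chromosome 14 (6240355 to 6240912) the nearest strong peak was 2383 kb away, the control peak was 558 bp wide with a score of 61.97 and the knockout peak 366 bp wide with a score of 69.6. On chromosome 18 (28235917 to 28236464) the distance was 2195 kb and the widths were 548 and 477 bp. The pair on chromosome 15 (21038814 to 21039711) stood 1926 kb from a strong peak and had widths of 876 and 741 bp. On chromosome 12 (23255023 to 23255878), at 1705 kb, the control peak scored 61.45 and the knockout peak 180.96, and here the knockout peak was the wider, with 846 against 722 bp. The remaining pairs of this group were on chromosome 14 (89498718 to 89499450; 1680 kb, 733 and 353 bp) and on chromosome 9 (10811017 to 10812087; 1571 kb, 971 and 843 bp). In 5 of these 6 pairs the knockout peak was the narrower. These are too few pairs to set against the 69.2% of all weak pairs or 73.7% of all autosomal pairs.

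The spacing of weak pairs is given without a comparison, since it depends on their number. The median gap from a weak pair to the next was 284 kb (interval 259 to 322), and 96 pairs (5.96%) had another within 10 kb. They were spread over 977 windows of 1 Mb, of 2100 windows that held any pair, and 584 of these windows held a single weak pair. The window with the most was on chromosome 18 from 37000001 to 38000000, with 9 weak pairs among 36 pairs, 60 control peaks and 81 knockout peaks. There the knockout peak was the narrower in 3 of 9 pairs, and the weak pairs lay 12.8 to 181 kb from a strong peak. Its widest weak pair (37607105 to 37608276) measured 1065 bp (control) and 1070 bp (knockout), and the pair that differed most (37454137 to 37455104) measured 487 and 968 bp. Chromosome 17 from 22000001 to 23000000 followed with 8 weak pairs among 19 pairs, of which 4 were narrower in the knockout list. Windows on chromosome 11 from 96000001 to 97000000 and on chromosome 7 from 28000001 to 29000000 held 7 weak pairs each, and 5 were narrower in each. With so few pairs in a window, these shares were not set against the genome.

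Chromosomes held similar shares of weak pairs. The share of one-to-one pairs that were weak ranged from 6.88% on chromosome 16 (39 of 567 pairs, interval 4.94 to 9.28) to 11.3% on chromosome 10 (109 of 962 pairs, interval 9.40 to 13.5). The interval covered the share over all autosomes, 9.09%, on 18 of 19 chromosomes, with chromosome 10 as the exception. The median log2 width ratio was below 0 on all 19 autosomes, and its interval lay below 0 on 18. It ran from -0.32 on chromosome 9 (interval -0.485 to -0.196), where 84.6% of 78 weak pairs were narrower in the knockout list, to -0.06 on chromosome 8 (interval -0.204 to 0.048), where 56.8% of 95 were. Over all autosomes the share was 69.2% of weak pairs and 73.7% of all one-to-one pairs. Chromosomes 9 and 8 are the extremes of 19, and the share over all pairs of each chromosome is not given here. Median gaps to a strong peak ran from 20.5 kb on chromosome 11 to 89.2 kb on chromosome 18.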

How the data were processed

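Peak lists of 2 H3K4me3 ChIP-seq libraries (control and Men1 knockout islets, 2 months) were used. Bowtie, MACS 1.4.2 and the build mm9 appear in the submitters' processing notes. Not given in the sources used here: use of the inputs, filters and pooling. Each list was deposited without header and gives chromosome, start, end, name and a score per peak. The score is the authors' value on a scale the lists do not state. The same cuts and score ranges were applied to both lists, with no adjustment of scores between them. Positions (start, end) are as the authors deposited them, printed counting from 1. The name of each list states genotype, age and mark, which tied it to 1 sample, and also carries an unexplained "2nd". Unused per-sample columns: 0.

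Peaks were paired, and widths and gaps computed, in Python 3.11.15 (numpy 2.4.6, pandas 2.3.3, scipy 1.17.1). The functions were tested on simulated data and against bedtools 2.31.1. Medians carry 95% order-statistic intervals and shares exact (Clopper-Pearson) 95% intervals. Strong peaks of both lists were joined where they overlap before gaps were measured. The members, classes and rules were chosen with earlier results of these data known. Regions were named by rule: the 6 weak pairs farthest from a strong peak, the 6 widest, the 4 lowest and 4 highest width ratios, those next to the threshold, the lowest scores, the 4 smallest gaps and the 1 Mb windows with most weak pairs. In groups of several, not every region is printed. Gene names and start sites were planned but not used, as no annotation of mm9 was at hand. Alternatives changed the score thresholds, the overlap rule, the chromosomes and the way distance was measured.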

Additional observations from a re-analysis of the deposited data

How the results depend on the processing

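Of 53 values recomputed under alternatives, 33 stayed within the interval of the reported value (within 1.5 times for the number of pairs) and 20 did not. The median log2 width ratio stayed within its interval under all 5 alternatives run for it, from -0.18 to -0.21. With weak peaks defined by a score under 150 there were 1011 weak pairs, with a median gap to a strong peak of 44.5 kb and 28.7% over 100 kb away, and 43.4% of weak control and 60.4% of weak knockout peaks were found again. Under 300 there were 2579 pairs, and 55.1% and 70.0% were found again. With a reciprocal overlap of 50%, 43.4% and 51.4% were found again, and with a peak within 1 kb counted as shared, 52.5% and 68.6%. With strong peaks taken from a score of 500, the median gap was 31.7 kb, with 13.8% within 5 kb and 22.0% over 100 kb. With a score of 3100 or more it was 61.6 kb, with 8.01% and 36.6%. Measured from midpoint to midpoint, 8.32% lay within 5 kb, since the peaks' own widths are then included. In an alternative added after seeing the data, with both peaks in the lowest 20% of their list by score, 71.5% of pairs were narrower in the knockout list. For the remaining changes the cause was not tested. Start site windows were not run for want of an mm9 annotation. No paired analysis was possible because there is 1 library per genotype, and for the same reason no library could be left out. Depth is unknown, so no limit of detection can be given.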
